A study of Mus musculus with 6 samples.

Results

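The expression of 10 genes that report or restrain canonical Wnt signalling was followed in synovial fibroblasts (SFs) given amisulpride, a drug against psychosis whose known targets are dopamine and serotonin receptors. The genes were Ctnnb1, Axin2, Nkd1, Nkd2, Notum, Rnf43, Znrf3, Apcdd1, Tcf7 and Lef1. They were found by symbol in the gene table, each at 1 row, and are 10 of its 49548 genes. They were picked by name, with earlier results of these data known, and the rule itself uses no measured value. Nkd1 was higher and Nkd2 lower in the treated cells, Ctnnb1, Apcdd1 and Znrf3 did not pass the thresholds used, and the other 5 genes lay below the filter on low values and were not tested.

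Both groups were SFs from the ankle joints of CBA C57BL/6J mice with a human TNF transgene (hTNFtg), taken at 8 weeks of age and depleted of CD45+ cells at the first passage. The untreated group had 3 libraries, and the amisulpride group had 3 libraries from cells given 500 μM of the drug for 48 hours. The labels call the controls untreated, whereas the study's methods speak of vehicle. All 6 libraries carry the transgene, so none shows these genes without human TNF, and the cells had been cultured away from the joint. Each value comes from bulk RNA, in which fewer cells expressing a gene and less RNA per cell cannot be told apart.

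In canonical Wnt signalling, a Wnt ligand bound to a Frizzled receptor and an Lrp co-receptor stops the breakdown of β-catenin, the product of Ctnnb1. The protein then enters the nucleus and joins transcription factors of the TCF/LEF family, which include the products of Tcf7 and Lef1. Many of the genes switched on in this way encode inhibitors of the same pathway. Axin2 is a scaffold of the complex that breaks β-catenin down, Nkd1 and Nkd2 bind Dishevelled inside the cell, Notum removes the lipid from Wnt ligands, Znrf3 and Rnf43 remove Frizzled receptors from the surface, and Apcdd1 is a membrane protein that binds Wnt and Lrp. In joints the pathway is known for its part in bone formation and in cartilage upkeep.

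Values are normalised counts, meaning read counts after scaling by a factor for each library and rounding. Approximate depth was 2.52 to 4.71 M reads per library, and the estimate is uncertain for untreated replicate 1. The genes above 0 numbered 16851 to 18364 per library. On the first principal component, which held 37.1% of the variance, amisulpride replicate 3 stood at 73.9, far from the other libraries at -38.2 to 10.4. All 14 fibroblast markers passed the filter and 0 of them passed the thresholds, with summed values of 46044 to 61679 in untreated and 53673 to 93009 in treated libraries. Among 13 leukocyte and myeloid markers, 12 were tested and 2 were lower (Csf1r and Cd14), with sums of 2444 to 4249 and 2393 to 4297. The direction was mixed in this list, as 5 of the 12 had log2 fold changes above 0 without passing the thresholds. These were C1qc at 0.95, Adgre1 at 0.83, C1qb at 0.75, Cd68 at 0.31 and C1qa at 0.05. Mcam, a mural cell marker, and Alpl, an osteoblast marker, were also lower, as 1 of 3 and 1 of 2 tested markers of their lists, whose sums ran from 254 to 400 and from 81 to 123 in untreated and from 192 to 275 and from 76 to 105 in treated libraries. With the replicate number as a block, the adjusted p-values from limma were 0.0120 for Cd14, 0.0191 for Mcam and 0.0148 for Alpl, against 0.144, 0.0764 and 0.0925 without it. Csf1r missed the thresholds when any library except amisulpride replicate 3 was left out, at log2 fold changes of -1.15 to -0.53. Alpl reached the filter only through its untreated values of 63, 21 and 28, as its treated values were 8, 4 and 5. The part of these markers in the results was not tested. The 8 endothelial markers summed to 5 to 14 and 2 to 17, with 0 of them tested. The 7 chondrocyte markers (1 tested) and 8 skeletal muscle markers (2 tested) had 0 past the thresholds.

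Nkd1 (ENSMUSG00000031661) lies at chr8:88521354-88594884 on the plus strand of mm10, and Nkd2 (ENSMUSG00000021567) at chr13:73818534-73847631 on the minus strand. Their promoters are shown because these related genes are the pair that passed the thresholds, in opposite directions. The sequences are RefSeq windows of 300 bases on GRCm38.p6, the assembly that mm10 is drawn from, at chr8:88527383-88527682 on the plus strand for Nkd1 and chr13:73847582-73847881 on the minus strand for Nkd2. Capitals mark the 50 bases that begin at the transcription start.
Nkd1: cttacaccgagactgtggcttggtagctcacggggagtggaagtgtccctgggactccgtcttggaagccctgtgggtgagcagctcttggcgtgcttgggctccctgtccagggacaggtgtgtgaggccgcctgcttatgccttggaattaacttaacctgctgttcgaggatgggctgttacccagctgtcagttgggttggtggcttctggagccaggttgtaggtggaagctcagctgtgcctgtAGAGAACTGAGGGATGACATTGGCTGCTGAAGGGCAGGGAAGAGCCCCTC
Nkd2: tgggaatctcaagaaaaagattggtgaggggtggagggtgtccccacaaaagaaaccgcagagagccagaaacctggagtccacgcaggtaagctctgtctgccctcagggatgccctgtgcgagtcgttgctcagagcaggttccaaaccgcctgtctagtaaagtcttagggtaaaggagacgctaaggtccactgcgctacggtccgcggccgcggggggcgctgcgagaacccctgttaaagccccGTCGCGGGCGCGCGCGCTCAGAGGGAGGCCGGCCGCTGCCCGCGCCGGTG
The Nkd2 start falls on the first base of the gene as deposited, whereas the Nkd1 start lies 6279 bases inside it, so the Nkd1 window is that of an internal RefSeq start. The Nkd2 window holds 26 CpG pairs and has a GC content of 63%, and 83.1% of the 32851 windows of all genes hold fewer CpG pairs. The Nkd1 window holds 6 CpG pairs at a GC content of 58.3%, against a median of 7 pairs and 52.7% over all windows. Neither window holds any of 4 words for TCF/LEF binding (CTTTGNN with A or T at each N, searched on both strands). The words were found in 1 of the 13 windows of the 7 genes that had one, at a Lef1 start, and in 16.9% of all windows. These letters may still lie elsewhere in the genes.

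Genes were tested with limma on log2(normalised count + 1) where at least 3 of the 6 libraries had a value of 10 or more, which 5 of the 10 genes did. Nkd1 did so only with its treated libraries, at 18, 24 and 30, as untreated values of 5 and 9 lay below 10. Its entry to the test thus depended on the group in which it was higher. The study thresholds, as used below, ask for a log2 fold change of 1 or more in size and an unadjusted p-value below 0.05. Of the 5 genes tested, 2 passed them (1 higher and 1 lower), against 5.7% of the 12614 genes tested (2.69% higher and 3.01% lower). In these 2 genes the treated and untreated values did not overlap, as was the case for 16.5% of all genes tested. At a Benjamini-Hochberg adjusted p-value under 0.05 from limma, 0 of the 5 genes passed, against 0.285% of all genes, and 2 of the 5 had an unadjusted p-value under 0.05, against 10.9% of all genes. With the replicate number as a block in the limma model, 1 of the 5 passed at an adjusted p-value under 0.05, against 2.08% of all genes. The log2 fold change was above 0 in 3 of the 5, with a median of 0.23, against 50.1% and a median of 0.00 over all genes.

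**Figure D1:**
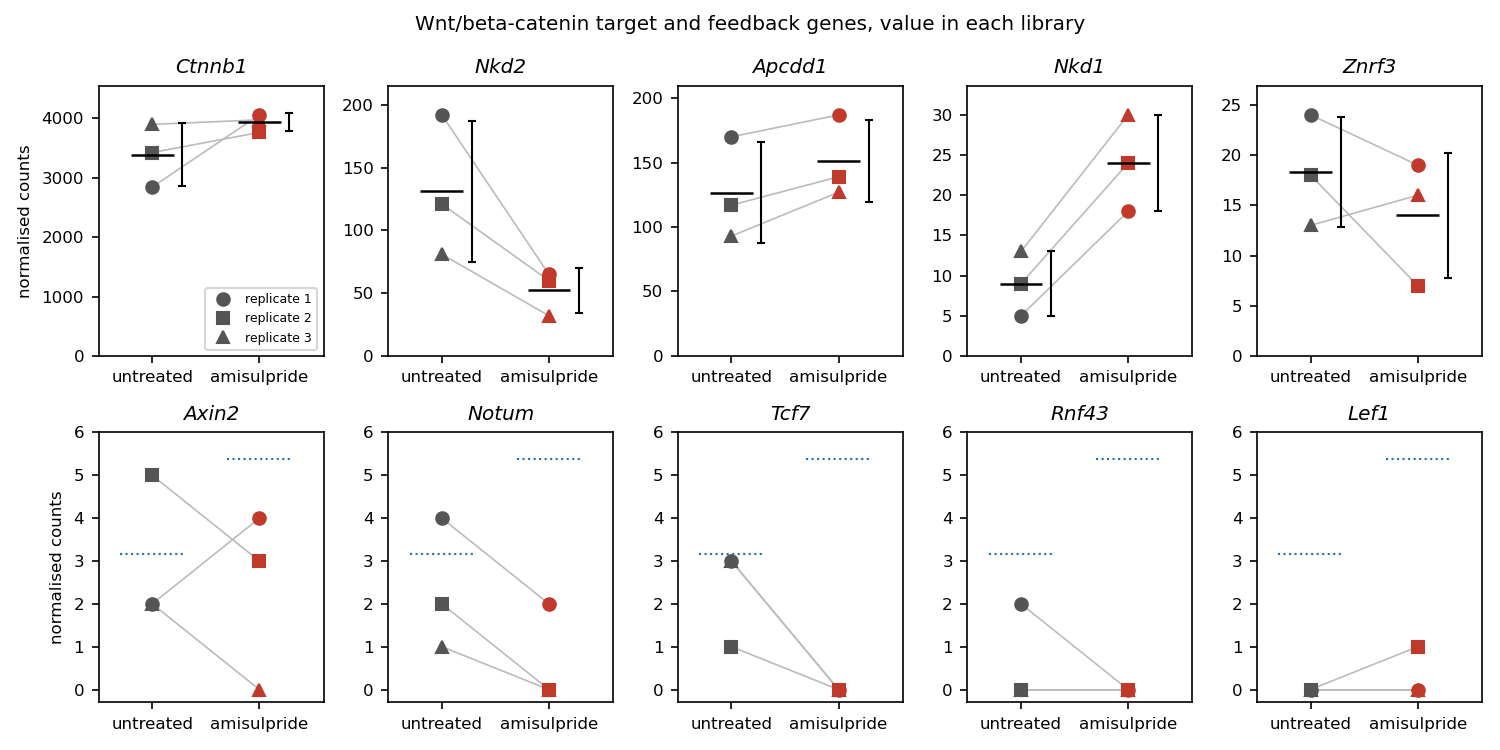
Normalised counts of the 10 genes in untreated (grey) and amisulpride (red) libraries, with 1 symbol per replicate number, grey lines joining libraries of the same number and, in the upper row, the mean (bar) and SD over 3 libraries. In the lower row the dotted lines give the highest value of 3 reads in any library of the group, 3.16 for untreated and 5.37 for treated. Nkd1 and Nkd2 have groups that do not overlap, and the genes of the lower row do not exceed 5.

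Ctnnb1 (ENSMUSG00000006932, chr9:120929216-120960507, plus strand), which encodes β-catenin, was the most abundant of the 10 genes. Its level in untreated cells was 2844, 3426 and 3900 normalised counts, and in treated cells 4059, 3764 and 3976. The ranges overlapped, although the lowest value was that of an untreated library and the highest that of a treated one. The means were 3390 ± 529 and 3933 ± 152 (SD, n = 3 each). The log2 fold change was 0.23 (SE 0.25, limma adjusted p = 0.785), and its 95% interval spanned folds of 0.799 to 1.71. Ctnnb1 mRNA was higher than that of 99.4% of the genes detected, so low counts do not limit this value. The protein, through whose breakdown the pathway acts, was not measured. On the opposite strand its exons overlap those of Ulk4, which had 2 to 13 normalised counts, and whether counting used the strand is not stated.

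Nkd2 had 192, 121 and 81 normalised counts in untreated cells and 65, 60 and 32 in treated cells. Every treated value lay below every untreated one, and the untreated values spread over a wider range than the treated ones. The mean went from 131.3 ± 56.2 to 52.3 ± 17.8 (SD, n = 3 each), a ratio of 0.398. The log2 fold change was -1.29 (SE 0.38, limma adjusted p = 0.213), with a 95% interval of -2.13 to -0.45. Between libraries of the same replicate number the ratio of treated to untreated was 0.339, 0.496 and 0.395, so the decrease was of similar size in each. With the replicate block the adjusted p-value from limma was 0.028. In approximate reads, Nkd2 had 32.9 per M reads over the untreated group (95% Poisson interval 29.8 to 36.3) and 13.8 (11.6 to 16.3) over the treated group, where the intervals cover counting error only.

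Nkd1 had 5, 9 and 13 normalised counts in untreated cells and 18, 24 and 30 in treated cells. It thus moved the other way, and again the groups did not overlap. The mean went from 9 ± 4 to 24 ± 6 (SD, n = 3 each), which is 2.67 times as much. The log2 fold change was 1.38 (SE 0.49, limma adjusted p = 0.312, 0.176 with the replicate block), and its 95% interval was 0.29 to 2.46. Libraries of the same number differed 3.6, 2.67 and 2.31 times. The approximate reads behind these values were 30 over the untreated group and 55 over the treated group, or 2.42 per M reads (1.63 to 3.45) and 5.58 (4.2 to 7.26). The exons of Nkd1 and Nkd2 overlap those of no other annotated gene.

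Sorted by Nkd1 from lowest to highest, or by Nkd2 from highest to lowest, the 6 libraries fall in the order of the first principal component. That component also places amisulpride replicate 3, the shallowest library, at one end and untreated replicate 1 at the other, and its part in the 2 results was not tested. Without untreated replicate 1, neither gene passed the thresholds, with log2 fold changes of 1.05 for Nkd1 and -0.97 for Nkd2. The same was so without amisulpride replicate 3, with 1.21 for Nkd1 and -0.97 for Nkd2. In both cases Nkd2 kept an unadjusted p-value below 0.05 and missed the size, and Nkd1 kept the size and missed the p-value. Leaving out any other library kept both past the thresholds, and the direction of both held throughout, as the plot of processing alternatives shows.

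**Figure D2:**
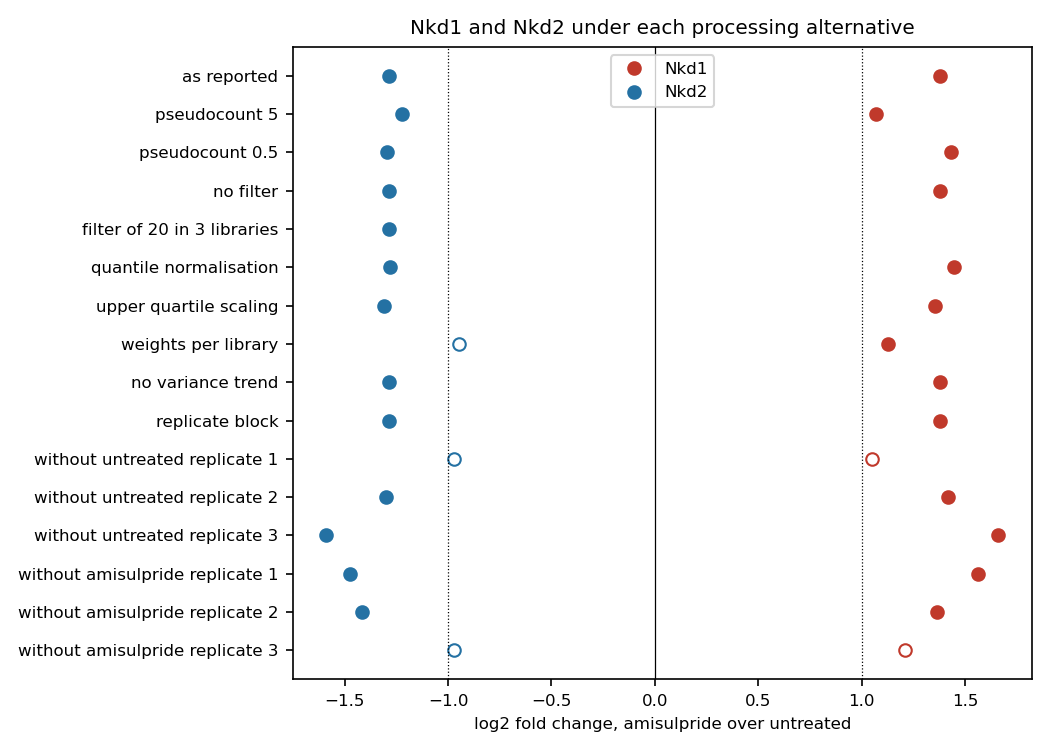
Log2 fold change of Nkd1 (red) and Nkd2 (blue), amisulpride over untreated, as reported and under each processing alternative, with filled symbols where the study thresholds were passed and open ones where not. Nkd1 stays between 1.05 and 1.66 and Nkd2 between -1.59 and -0.95, and Nkd1 has no symbol at a filter of 20, which it did not pass.

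The balance between the paralogues was also described within each library, where the scaling factor cancels. This comparison and the next were chosen after the values were seen. Nkd2 had 38.4, 13.4 and 6.23 times the normalised count of Nkd1 in untreated cells and 3.61, 2.5 and 1.07 times in treated cells. In amisulpride replicate 3 the 2 genes were thus almost level. The log2 difference of Nkd1 from Nkd2 went from -3.72 ± 1.23 to -1.06 ± 0.876 (SD, n = 3 each). All 3 treated values lay above all 3 untreated ones, which was fixed once each gene separated the groups in opposite directions. The exact permutation test gave a two-sided p = 0.1 before and after adjustment over the 2 ratios, the smallest that 3 against 3 libraries can give. It therefore adds no evidence to the results of the single genes.

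Apcdd1 (ENSMUSG00000071847, chr18:62922327-62953195, plus strand), the Wnt-binding inhibitor of the membrane, had 170, 117 and 93 normalised counts in untreated cells and 187, 139 and 127 in treated cells. The groups overlapped, but within each replicate number the treated value was the higher one, by 0.14, 0.25 and 0.45 on the log2 scale. The means were 126.7 ± 39.4 and 151 ± 31.7 (SD, n = 3 each), with a log2 fold change of 0.28 (SE 0.30, limma adjusted p = 0.779, 0.69 with the replicate block) and a 95% interval of 0.77 to 1.9 in fold. A difference of that range cannot be told from none here.

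Apcdd1 and Nkd2 had similar levels in untreated cells, where their ranges overlapped. Apcdd1 was at 0.885, 0.967 and 1.15 times Nkd2 in untreated cells and at 2.88, 2.32 and 3.97 times in treated cells. The log2 difference went from -0.01 ± 0.189 to 1.56 ± 0.38 (SD, n = 3 each) without overlap (exact permutation test, two-sided p = 0.1, again the smallest possible). Nkd2 alone already separated the groups and the ratio was chosen with the values known, so this test too adds no evidence to the result for Nkd2. Among the untreated libraries the 2 genes had the same order of values, with replicate 1 highest and replicate 3 lowest in both.

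**Figure D3:**
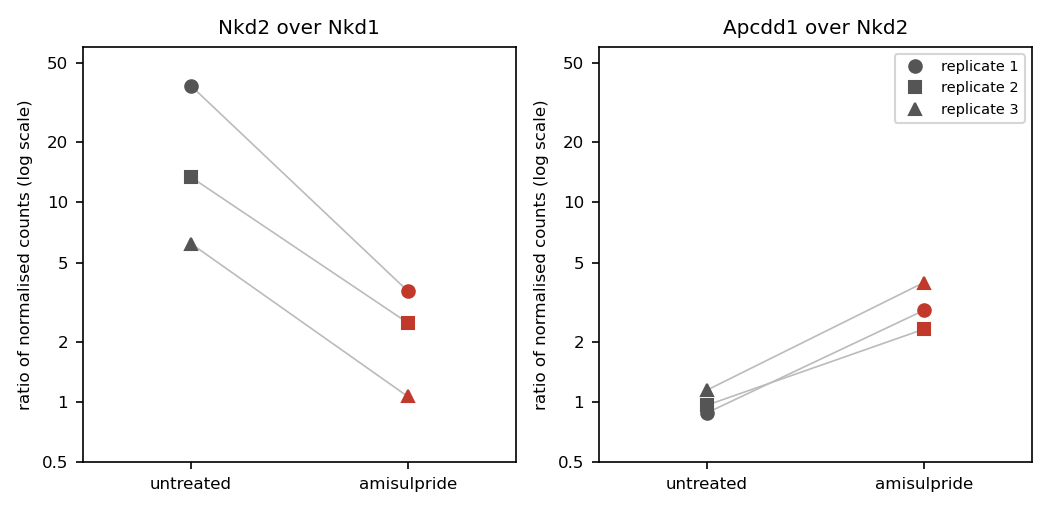
Ratio of normalised counts within each library on a log axis, Nkd2 over Nkd1 (left) and Apcdd1 over Nkd2 (right), with 1 symbol per replicate number and grey lines joining libraries of the same number. Nkd2 over Nkd1 lies between 6.23 and 38.4 in untreated and 1.07 and 3.61 in treated libraries, and Apcdd1 over Nkd2 is near 1 in untreated and at 2.32 or above in treated libraries.

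Znrf3 (ENSMUSG00000041961, chr11:5276324-5444847, minus strand), a ubiquitin ligase for Frizzled receptors, had 24, 18 and 13 normalised counts in untreated cells and 19, 7 and 16 in treated cells. The groups overlapped, and the treated value was lower in replicate numbers 1 and 2 and higher in number 3. The log2 fold change was -0.43 (SE 0.50, limma adjusted p = 0.796), with an interval of 0.345 to 1.6 in fold. The approximate reads behind these values were 58 and 35 per group. It was the only gene of the 5 tested whose direction differed between replicate numbers, and 34.7% of all genes tested had the same direction in all 3.

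Its partner ligase Rnf43 (ENSMUSG00000034177, chr11:87662722-87735539, plus strand) had 2, 0 and 0 normalised counts in untreated cells and was at 0 in all treated libraries. A floor of 3 reads, the most that a count of 0 allows, is 2.5 to 3.16 normalised counts in untreated and 2.69 to 5.37 in treated libraries, and Rnf43 stayed under it in all 6. Of the pair, Znrf3 was thus the ligase whose mRNA stood above the floor.

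Axin2 (ENSMUSG00000000142, chr11:108920349-108950783, plus strand), widely used as a read-out of the pathway, had 2, 5 and 2 normalised counts in untreated cells and 4, 3 and 0 in treated cells. It exceeded the floor in 1 library of each group. Its approximate reads were 0.725 per M reads (0.331 to 1.38) and 0.609 (0.223 to 1.32), so the groups were not distinguishable at this depth. Notum (ENSMUSG00000042988, chr11:120653788-120661175, minus strand), which encodes the secreted carboxylesterase, had 4, 2 and 1 normalised counts in untreated cells and 2, 0 and 0 in treated cells, above the floor in 1 untreated library. Exons of Axin2, Notum and Lef1 overlap annotated genes on the opposite strand, so some of these few reads may belong to those.

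The nuclear factors Tcf7 and Lef1 were at the limit of detection, whereas all 30 nuclear partners of β-catenin in the list described below passed the filter. Tcf7 (ENSMUSG00000000782, chr11:52252371-52283014, minus strand) had 3, 1 and 3 normalised counts in untreated cells, about 8 reads in all, and was at 0 in the 3 treated libraries. The intervals, 0.278 to 1.27 per M reads in untreated and up to 0.374 in treated cells, overlap. When the filter on low values was dropped, Tcf7 passed the study thresholds as lower in treated cells (limma adjusted p = 0.315), as the only one of the 5 genes below the filter to do so. No fold is given, because the treated libraries are at 0 and the untreated values are at or near the floor. Lef1 (ENSMUSG00000027985, chr3:131110471-131224356, plus strand) was at 0 in 5 libraries and at 1 in amisulpride replicate 2. Both genes are abundant in T cells, and 5 of 10 T cell markers (Cd3g, Cd3e, Cd247, Cd2 and Cd8a) were at 0 in all 6 libraries. Of the others, Cd4 had 3, 1 and 3 normalised counts in untreated and 1, 0 and 0 in treated cells. Trac had 2, 1 and 6 and then 1, 0 and 0, Il7r had 4, 0 and 3 and then 2, 0 and 0, and Lck had 1, 0 and 1 and then 0 throughout. Whether T cells supplied any of the Tcf7 reads was not tested. The summed T cell markers were 28 to 40 in untreated and 11 to 33 in treated libraries, most of it from Cd3d. Only 1 of the 10, Cd3d, was tested, and it did not pass the thresholds.

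The genes were also ordered by normalised counts, which a 3′ end kit leaves undivided by gene length. In untreated SFs the order was Ctnnb1, then Nkd2 and Apcdd1 with overlapping ranges, then Znrf3 at 13 to 24 and Nkd1 at 5 to 13. The ranges of Znrf3 and Nkd1 meet, as both had 13 in untreated replicate 3. In treated SFs the order was Ctnnb1, Apcdd1, Nkd2, then Nkd1 at 18 to 30 and Znrf3 at 7 to 19, whose ranges overlap. Nkd2 and Apcdd1 no longer overlapped there, at 32 to 65 and 127 to 187. Axin2, Notum, Tcf7, Rnf43 and Lef1 followed in both groups and cannot be ordered among themselves. Comparisons between genes are approximate, since priming near the transcript end differs from gene to gene.

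**Figure D4:**
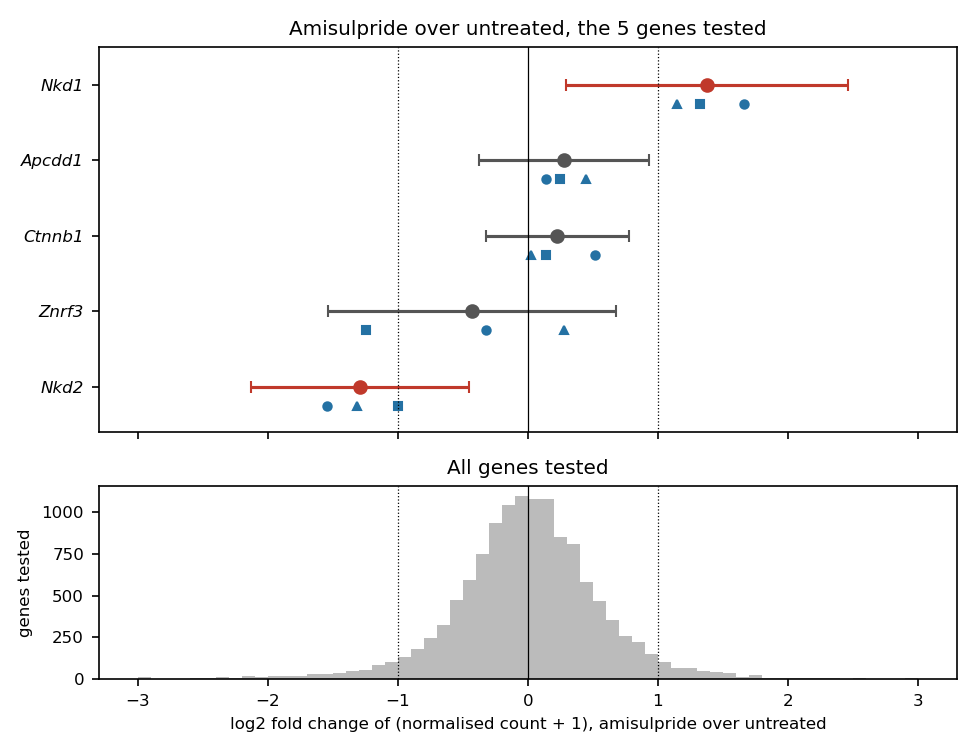
Upper panel, log2 fold change (amisulpride over untreated) with its 95% interval for the 5 genes tested, red where the study thresholds (dotted lines at -1 and 1, with an unadjusted p-value under 0.05) were passed, and in blue the differences within replicate numbers 1 (circle), 2 (square) and 3 (triangle). The lower panel is the histogram of the 12614 genes tested, with values beyond -3 and 3 placed in the last bins. Nkd1 and Nkd2 lie in opposite tails, and the interval of each leaves out 0.

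Other genes of the pathway were read from 5 lists, described by counts. Of 174 listed genes with a row, 123 were tested, and 12 of these passed the study thresholds (9.76%, against the 5.7% of all genes), 8 higher and 4 lower, with 0 at an adjusted p-value under 0.05 from limma. Among those called higher, Fgf18, Sfrp4 and Ror1 reached the filter only through their treated libraries. Among those called lower, Mitf and Tbx3 would not have reached it without their untreated libraries. For these genes, entry to the test depended on the group in which they were higher. The lists that hold the machinery around β-catenin itself had 0 genes past the thresholds. These were 22 tested genes of β-catenin turnover, such as the kinases and scaffolds of the destruction complex, with a median log2 fold change of 0.11, and 30 nuclear partners of β-catenin, with a median of -0.05. Without the filter on low values, 1 turnover gene passed them, Apc2, a relative of the destruction complex scaffold Apc, with 10, 11 and 3 normalised counts in untreated and 4, 0 and 0 in treated cells. It is named here after its values were seen. The partners had 1 gene past them without untreated replicate 2, amisulpride replicate 2 or amisulpride replicate 3. The median over all genes tested was 0.00.

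Of 26 tested Wnt ligands, receptors and transducers, 4 were higher and 0 lower, and the median was 0.39. Without the filter on low values, the Wnt ligand Wnt4 passed the thresholds as lower in treated cells (limma adjusted p = 0.53). It had 11, 3 and 3 normalised counts in untreated and 1, 0 and 2 in treated cells, and is named after its values were seen. Rspo3, an R-spondin that keeps Znrf3 and Rnf43 from removing Frizzled, had 157, 179 and 187 normalised counts in untreated cells and 341, 648 and 426 in treated cells, a log2 fold change of 1.38 (limma adjusted p = 0.0678, 0.0091 with the replicate block). Fzd4, a Frizzled receptor, had 17 to 20 and 47 to 56 normalised counts. Porcn, which adds the lipid that Notum removes, had 32 to 39 and 54 to 262 (limma adjusted p = 0.225, 0.0359 with the block), with the highest value in amisulpride replicate 2. Ror1, a receptor for non-canonical Wnt ligands, had 6 to 9 and 16 to 32. Porcn missed the thresholds without amisulpride replicate 2 (log2 fold change 0.96), and Ror1 without amisulpride replicate 3 (1.07).

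Of 11 tested secreted antagonists and their co-receptors, 2 were higher and 1 lower, with a median of 0.05, and all 3 are Wnt-binding proteins of the secreted Frizzled-related family. Sfrp2 had 343, 666 and 215 normalised counts in untreated cells and 1175, 2534 and 1253 in treated cells, a log2 fold change of 2.08 (limma adjusted p = 0.0652, 0.000527 with the block). Sfrp4 had 2 to 5 and 11 to 21, and Frzb had 44 to 62 and 5 to 35, a log2 fold change of -1.66. Frzb missed the thresholds without untreated replicate 1, untreated replicate 3 or amisulpride replicate 3, at log2 fold changes of -1.60, -1.57 and -0.89. As with the Nkd pair, related antagonists lay on opposite sides.

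Of 34 tested genes often used as β-catenin targets in other tissues, 2 were higher and 3 lower, with a median of -0.03. Fgf18, a growth factor of bone and cartilage, had 2, 0 and 0 normalised counts in untreated cells and 10, 32 and 13 in treated cells, at least 6.4-fold higher than the floor of 3 reads per library, or 4.02-fold without amisulpride replicate 2 (limma adjusted p = 0.113, 0.0441 with the block). Fst, an activin antagonist, was called higher although its values of 105 to 250 and 181 to 415 overlapped between groups, and missed the thresholds without untreated replicate 1 or 3 or amisulpride replicate 2 or 3, at 0.87 to 0.95. Plaur, the urokinase receptor, had 82 to 120 and 37 to 52, and the transcription factors Mitf and Tbx3 had 17 to 24 and 4 to 13, and 14 to 27 and 7 to 11. Mitf kept the thresholds without amisulpride replicate 1 or 2 and missed them without any other library, at -1.40 to -0.86. Tbx3 kept them without untreated replicate 2 or amisulpride replicate 1 and missed them without any other, at -1.11 to -0.93. The count of this list was 3 without untreated replicate 1, untreated replicate 3 or amisulpride replicate 2, and 8 without untreated replicate 2.

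**Figure D5:**
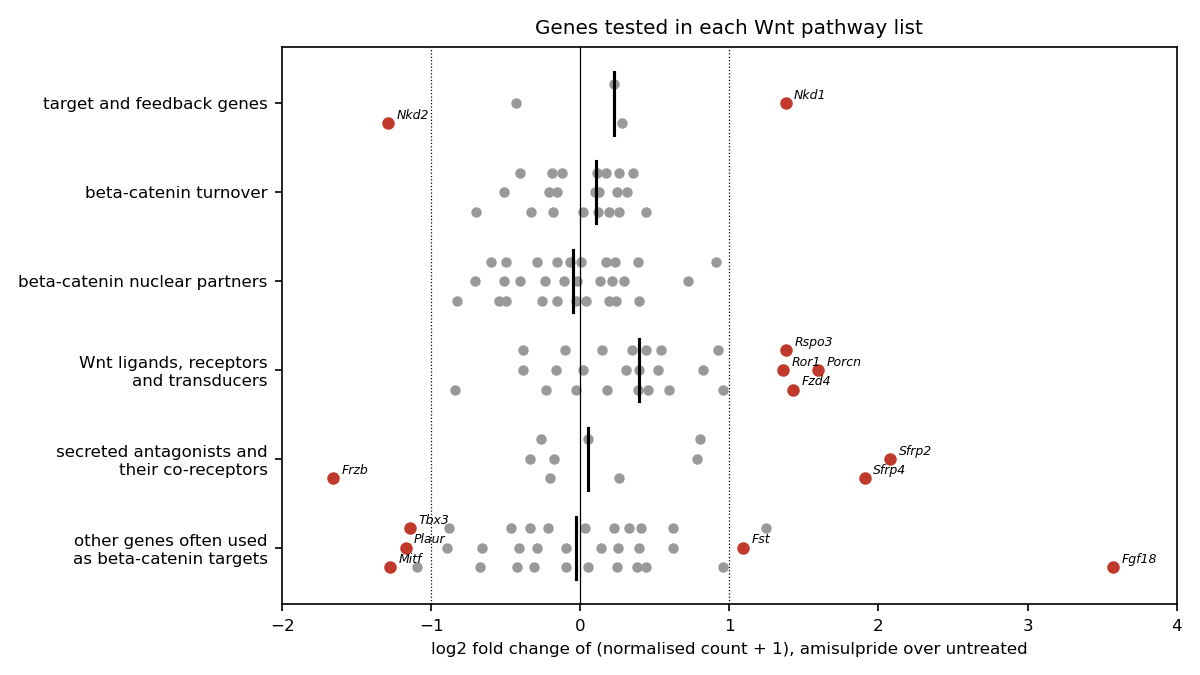
Log2 fold change, amisulpride over untreated, of each gene tested in the 10 target and feedback genes and in 5 other Wnt pathway lists, with genes past the study thresholds in red and named, and the median of each list as a black bar. No gene of β-catenin turnover or of the nuclear partners is past the dotted lines with a p-value under 0.05, and the fitted value of Fgf18 depends on the added count of 1 because it was near 0 in untreated cells.

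As a description, the genes whose log2 values were most like those of 2 of the genes over the 6 libraries were listed. For Nkd2, which had the lowest p-value, they were Tmem160, Hr, Zcchc24, E430018J23Rik and Chst1 (Pearson r of 0.9853 to 0.9953), among 56 protein-coding genes with r above 0.95. Nkd1 had r of -0.976 with Nkd2. For Ctnnb1, the most abundant, they were Thbs1, Taf4b, Ehbp1, Tubgcp2 and Zcchc8 (0.9694 to 0.9968), among 23 genes above 0.95. With 6 points that share 2 groups and the same depths, such values arise for many genes.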

How the data were processed

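RNA of 6 SF libraries was sequenced with a 3′ end kit (QuantSeq) on an Ion Proton instrument. Per the study's methods, the authors aligned reads to mm10 with TopHat2 at default settings, aligned the remainder with Bowtie2 (very sensitive preset), counted reads per gene with GenomicRanges, normalised the counts by a method not named there and tested them with DESeq, all through metaseqr, with versions not given in the sources used here. The deposited values used are a score: read counts that the authors scaled by 1 factor per library and rounded. The authors' fold changes and p-values, and 12 columns holding the libraries on other scales, were left out. Because these are not raw counts, the DESeq test of the study was replaced by limma (version 3.58.1, R 4.3.3). It was fitted to log2(normalised count + 1) with a variance trend (prior degrees of freedom 7.31), two-sided, adjusted by Benjamini-Hochberg over 12614 genes with at least 10 in 3 of 6 libraries. Fold changes on this scale understate those of low genes. Code was tested on simulated data.

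The value of 1 read was estimated in each library from the spacing of low values (0.834 to 1.79), giving approximate reads, depths and floors of 3 reads. It is uncertain for untreated replicate 1. Intervals cover counting error only, since reads carried no molecular identifiers. The study's methods describe 3 biological replicates per group. Neither the labels nor the methods state that libraries of the same replicate number share a source. Deviations from the group means correlated at 0.201 to 0.24 within numbers and at -0.149 to -0.078 across them. Centring on group means ties these 2 ranges together, so the negative values are no separate sign of pairing. Pairing is thus an assumption of the replicate block, and blocked values stand beside results whose call they change.

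The 10 genes and all lists were chosen with earlier results of these data known. All 10 genes are named. In each other pathway list, genes past the study thresholds without overlap between groups are named (at most 5 by lowest p-value). Fst, Apc2 and Wnt4 were added after their values were seen. Likeness was taken for the tested genes with the lowest p-value and the highest mean. Exons were compared with GENCODE M21, which gives the deposited coordinates for 9 of the 10 genes (Apcdd1 differs). Promoters are RefSeq windows (GRCm38.p6, 250 bases before to 50 after each start), which matched 7 of the 10 symbols. Python 3.11.15 and scipy 1.17.1 served for the exact tests. The alternatives were pseudocounts of 5 and 0.5, no filter, a filter of 20, quantile and upper quartile scaling, weights per library, no variance trend, the replicate block and each library left out.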

Additional observations from a re-analysis of the deposited data

How the results depend on the processing

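The counts of genes past the thresholds and the fold changes of the tested target and feedback genes, the other genes named as called and the 4 called markers were recomputed under 15 alternatives, and 0 reversed. Counts of genes without overlap or of one direction, and likeness values, were not recomputed. Of the values for whole comparisons and single target or feedback genes, 125 stayed on their side of the threshold or within 1.5 times, 5 lost the threshold and 18 moved further. The number of target and feedback genes past the study thresholds, 2 as reported, was 3 without a filter, where Tcf7 passed too, 1 at a filter of 20 (Nkd1 and Znrf3 were then not tested), 1 with weights per library, where Nkd2 was at -0.95, and 0 to 2 with each library left out. Leaving a library out put Nkd1 at 1.05 to 1.66, Nkd2 at -1.59 to -0.97, Znrf3 at -0.69 to -0.03, Ctnnb1 at 0.10 to 0.33 and Apcdd1 at 0.08 to 0.51. With the replicate block, 1 of these genes, Nkd2, had an adjusted p-value under 0.05, and the block changed no other call among the 10. The number of all genes at an adjusted p-value under 0.05, 36 as reported, was 57 at pseudocount 5, 57 when no filter was used, 66 with quantile normalisation, 195 with weights per library, 263 with the replicate block and 0 to 120 with each library left out, at 0 without untreated replicate 2 or 3, 1 without untreated replicate 1, 18 and 6 without amisulpride replicates 1 and 2, and 120 without amisulpride replicate 3. The number of all genes past the study thresholds, 719 as reported, was 1313 without a filter, and that of other pathway genes, 12 as reported, was 7 at a filter of 20. Among other named genes, single lists and the differences of log2 fold changes behind the 2 ratios, 298 values stayed, 31 lost the threshold and 10 moved. The differences were judged by their spread over libraries rather than by the thresholds, and all of them stayed. The cause of these shifts was not tested, apart from genes that a filter removes or adds. The difference between the log2 fold changes of Nkd1 and Nkd2, 2.66 as reported, ran from 2.02 to 3.25. Depth limits Axin2, Notum, Tcf7, Rnf43 and Lef1, of which Tcf7 passed the thresholds when untested genes were let in, and 3 libraries in each group limit every p-value.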
